A study of Mus musculus with 6 samples.

Results

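Hoxa4, Hoxa5, Hoxc4 and Hoxd3, anterior Hox genes of paralog groups 3 to 5, were followed in whole hearts of mouse embryos with reduced Nkx2-5. They are 4 of the 1577 genes in the deposited table, of which 1492 are protein-coding, and were picked by gene symbol because these Hox genes are listed there as changed. Hearts were dissected at E11.5 from the C57BL/6 hypomorphic Nkx2-5 line, with 3 hypomorphic embryos and 3 control littermates, and total RNA was sequenced. The controls are labelled WT, the study's genotyping covers an Nkx2-5-IRES-Cre line and an Nkx2-5-gfp line, and the alleles carried by each heart, controls included, are not given in the sources used here. The line keeps part of its NKX2-5, so it models a reduction and not a loss of the factor.

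The deposited table gives each gene 1 value per group on 2 scales, and single hearts have none. The raw value is the authors' mean of estimated reads over the 3 hearts, and the normalized value is the authors' group value on a log2 scale, where 0 is a baseline set for that gene. Only genes past the AC test, a read-count test between libraries, and a fold change of at least 1.5 are listed. The spread between hearts is therefore unknown, the differences below are descriptions of the contrast that chose the genes, and no test was run on them. Nkx2-5 is not among the listed genes and was not analysed here, so the labels were not checked by it. In whole hearts, more cells of one type cannot be told apart from more RNA per cell.

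Hox genes lie in the clusters A to D and encode homeodomain transcription factors that set position along the head-to-tail axis. Genes at the anterior end of each cluster respond to retinoic acid, which acts through nuclear receptors bound at DNA elements within and around the clusters. Around the heart, anterior Hox genes mark progenitors of the posterior second heart field, which add cells to both poles of the heart tube, and HOX proteins bind DNA together with cofactors of the TALE class such as MEIS and PBX proteins.

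All 4 genes had higher normalized values in hypomorphic than in control hearts. Hoxa4, Hoxa5 and Hoxc4 were higher by 3.06- to 3.46-fold, and their raw means were higher as well. Hoxd3 was higher by 1.91-fold on the normalized scale, whereas its raw mean was lower in hypomorphic hearts. Of the 1492 protein-coding genes listed, 42% were higher by the same rule and 3.22% were higher by at least 3-fold, against 3 of the 4 Hox genes at 3-fold. As the 4 genes were chosen on this contrast, nothing is read from these counts.

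**Figure D1:**
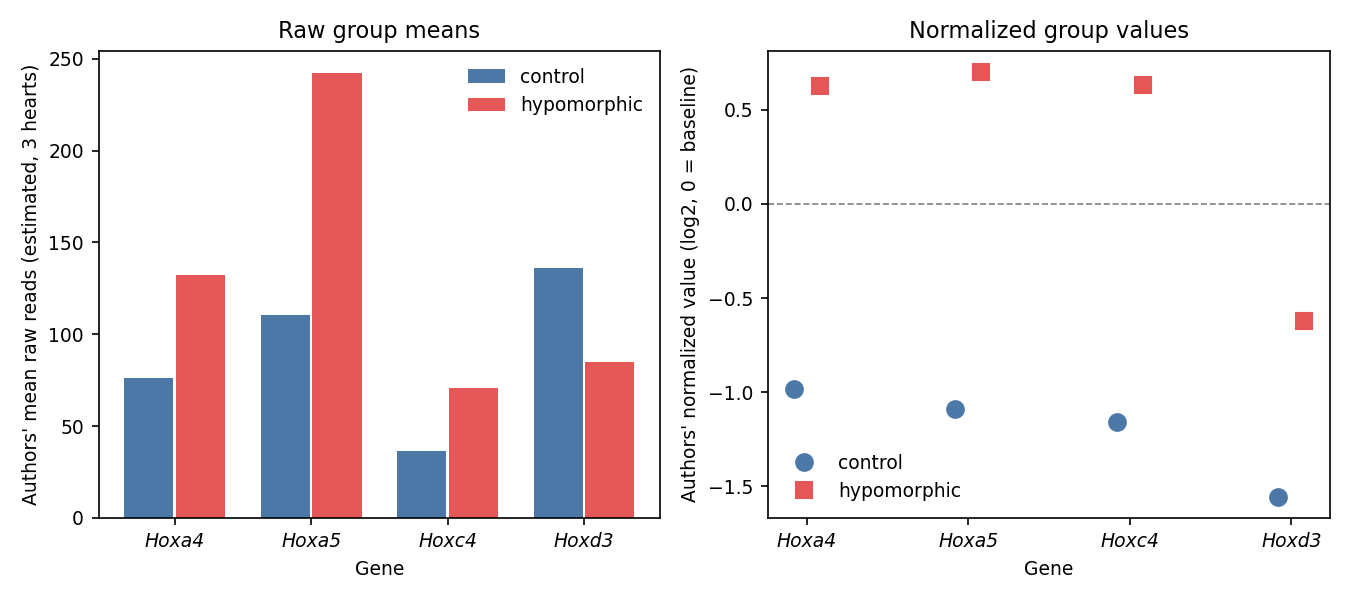
Authors' mean raw reads (left, bars from 0) and normalized log2 values (right, dashed line at the baseline of each gene) of the 4 Hox genes in control and hypomorphic hearts, 1 value per group with no error available. The raw bar of Hoxd3 is taller in control hearts (136 against 85.1), while its normalized value is higher in hypomorphic hearts (-0.62 against -1.56).

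Hoxa5, which is required for the development of the lung and trachea, had the most reads of the 4 in hypomorphic hearts. Its raw mean was 111 reads in control and 242 reads in hypomorphic hearts, a ratio of 2.19 (95% exact interval 1.92 to 2.50, over 332 and 727 estimated reads summed from the 3 hearts of each group). Its normalized value was -1.09 in control and 0.70 in hypomorphic hearts, a difference of 1.79. The control value thus lay below the baseline of the gene and the hypomorphic value above it. All such intervals treat estimated reads as counts and cover counting error only, not the spread between hearts.

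Hoxa4, a neighbour of Hoxa5 that takes part in patterning the cervical vertebrae, had a raw mean of 76.4 reads in control and 132 reads in hypomorphic hearts. The ratio was 1.73 (95% exact interval 1.47 to 2.05). Its normalized value was -0.99 in control and 0.63 in hypomorphic hearts, a difference of 1.61. Hoxa4 thus had the smallest difference of the 3 genes that were higher on both scales.

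Hoxc4, the paralog of Hoxa4 in the C cluster, had the fewest reads of the 4, with raw means of 36.5 reads in control and 70.9 reads in hypomorphic hearts. The ratio was 1.94 (95% exact interval 1.54 to 2.48). Its normalized value was -1.16 in control and 0.63 in hypomorphic hearts, a difference of 1.79, so that Hoxa5 and Hoxc4 had nearly the same difference from unlike numbers of reads.

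Hoxd3, of paralog group 3 and known for its part in forming the first cervical vertebrae, was the exception. Its raw mean was 136 reads in control and 85.1 reads in hypomorphic hearts, a ratio of 0.625 (95% exact interval 0.531 to 0.731), that is 1.60-fold more raw reads in control hearts. Its normalized value was -1.56 in control and -0.62 in hypomorphic hearts, a difference of 0.93 in the opposite direction. Both of its group values were below the baseline, as for 19 of the 1492 genes, whereas for each of the other 3 Hox genes the baseline lay between the groups, as for 551 genes that were below it in control and above it in hypomorphic hearts. Its control value was the 7th lowest of all 1492, and those of Hoxc4, Hoxa5 and Hoxa4 ranked 17th, 21st and 32nd from the lowest.

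Levels of different genes were set side by side only roughly, per kb of GENCODE exon with all transcripts of a gene merged. Hoxa5 had 59.0 raw reads per kb in control hearts, Hoxa4 had 47.9, Hoxd3 had 23.5 and Hoxc4 had 14.3. In hypomorphic hearts the order of these levels was Hoxa5 with 129 raw reads per kb, Hoxa4 with 83.1, Hoxc4 with 27.7 and Hoxd3 with 14.7. By this measure the A-cluster genes had the highest levels in both groups, and Hoxc4 and Hoxd3 changed places. The authors' reads are on RefSeq genes, whose exon lengths were not compared with these, so the order is approximate. Which neighbours in this order differ beyond the spread between hearts cannot be given.

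In the GENCODE annotation of mm9, the build to which the authors aligned, Hoxa4 lies on chromosome 6 from 52139670 to 52141752 and Hoxa5 from 52151753 to 52154586, both on the minus strand with transcription starts 12.8 kb apart. Hoxc4 lies on chromosome 15 from 102849367 to 102867274 and Hoxd3 on chromosome 2 from 74549986 to 74586331, both on the plus strand. Hoxa4 and Hoxa5 lie within introns of long Hoxa3 transcripts on the same strand and of the antisense RNA 2700086A05Rik, and share no exon base with either. Hoxd3 is different in this respect. It shares 1725 of its 5792 exon bases (29.8%) with Hoxd4 on the same strand, including an identical run of 831 bases between their transcripts, and a further 347 with the antisense RNA 1700109F18Rik. The authors analysed RefSeq genes, whose exons were not compared here, and the counting is not stated to use strand. If RefSeq exons overlap likewise, reads listed under Hoxd3 can include reads from Hoxd4 and from 1700109F18Rik, neither of which is listed. How much of the value of Hoxd3 they carry was not tested.

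The homeobox, the 180 bases that encode the DNA-binding homeodomain, is shown for Hoxa4, Hoxa5 and Hoxc4, the genes higher on both scales, because it is the sequence the family shares. Sequences are from GENCODE transcripts on mm9, written 5′ to 3′ on the coding strand, and each matched the genome exactly. Capitals mark homeodomain codons 48 to 53, in the helix that contacts DNA. The homeobox of Hoxa4 is in exon 2 at chr6:52140482-52140661 (minus strand), that of Hoxa5 in exon 2 at chr6:52152631-52152810 (minus strand) and that of Hoxc4 in exon 2 at chr15:102866094-102866273 (plus strand).
Hoxa4: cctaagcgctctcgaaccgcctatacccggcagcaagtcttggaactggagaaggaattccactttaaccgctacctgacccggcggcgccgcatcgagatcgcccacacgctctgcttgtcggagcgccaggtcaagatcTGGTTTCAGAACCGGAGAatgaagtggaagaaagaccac
Hoxa5: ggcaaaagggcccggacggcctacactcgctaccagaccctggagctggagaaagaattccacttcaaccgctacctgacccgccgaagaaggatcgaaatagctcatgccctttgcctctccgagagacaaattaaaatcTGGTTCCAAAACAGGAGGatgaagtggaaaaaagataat
Hoxc4: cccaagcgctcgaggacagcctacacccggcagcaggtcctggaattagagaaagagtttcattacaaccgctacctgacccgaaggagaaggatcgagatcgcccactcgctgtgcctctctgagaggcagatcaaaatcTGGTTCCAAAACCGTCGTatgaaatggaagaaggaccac

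Hoxa4 and Hoxc4, paralogs of group 4, were identical at 142 of the 180 bases (78.9%) and at 57 of 60 encoded residues (95.0%). Hoxa5 shared 134 bases (74.4%) with Hoxc4 and 128 bases (71.1%) with Hoxa4, and 53 of 60 encoded residues (88.3%) with each. Over whole transcripts, the longest identical run between any pair of the 4 was 22 bases, between Hoxa5 and Hoxd3. Against all other Hox transcripts in the annotation, it was 24 bases for Hoxa4 (with Hoxa2 and Hoxa3), 32 for Hoxa5 (with Hoxb7) and 20 for Hoxc4 (with Hoxb5 and Hoxc6). For Hoxd3, apart from Hoxd4, it was 47 bases, with Hoxb3. The read length is not given in the sources used here.

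The 250 bases before the transcription start are shown for the 3 genes found in the RefSeq promoter table (build GRCm38.p6), as these genes had higher normalized values together. Hoxa4 had no entry there. These RefSeq starts are on another build, and whether they are the GENCODE starts given above was not checked. Motifs searched on both strands were AGGTCA and AGTTCA, half-sites of retinoic acid receptors, TGACAG, a MEIS core, and TNAAGTG, an NKX2-5 core, and matches are in capitals. The promoter of Hoxa5 is at chr6:52204588-52204837 (minus strand), that of Hoxc4 at chr15:103034145-103034394 (plus strand) and that of Hoxd3 at chr2:74711743-74711992 (plus strand).
Hoxa5: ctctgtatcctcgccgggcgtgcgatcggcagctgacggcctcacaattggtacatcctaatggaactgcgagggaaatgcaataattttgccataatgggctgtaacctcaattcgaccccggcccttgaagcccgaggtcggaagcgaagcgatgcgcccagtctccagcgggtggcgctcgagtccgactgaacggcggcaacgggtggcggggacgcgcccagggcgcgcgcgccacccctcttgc
Hoxc4: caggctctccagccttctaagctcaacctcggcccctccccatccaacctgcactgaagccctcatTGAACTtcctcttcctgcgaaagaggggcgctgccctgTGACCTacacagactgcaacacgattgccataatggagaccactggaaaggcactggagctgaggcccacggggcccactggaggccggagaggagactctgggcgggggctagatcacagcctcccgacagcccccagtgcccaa
Hoxd3: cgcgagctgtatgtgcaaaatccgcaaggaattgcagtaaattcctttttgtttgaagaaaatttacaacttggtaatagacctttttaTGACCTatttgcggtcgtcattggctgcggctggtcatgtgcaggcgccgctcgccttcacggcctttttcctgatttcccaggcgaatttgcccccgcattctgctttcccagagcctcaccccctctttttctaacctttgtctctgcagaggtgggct

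The reverse complement of AGGTCA was found once in Hoxc4, from 146 to 141 bases before the start, and once in Hoxd3, from 161 to 156 bases before it. That of AGTTCA was found once in Hoxc4, from 184 to 179 bases before the start. Neither half-site was found in Hoxa5, and TGACAG and TNAAGTG were found in none of the 3 windows. Among all 32851 windows in the table, AGGTCA was present in 14.02%, AGTTCA in 11.8%, TGACAG in 15.9% and TNAAGTG in 10.1%. The matches describe these letters only, and no match does not mean that a factor is not bound.

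The disagreement between the scales for Hoxd3 was set against the same measure for all listed genes. For each gene, the gap was taken as the normalized difference minus the log2 ratio of the raw means. A constant factor between the groups would give every gene the same gap only if both scales averaged the hearts in the same way. Over the 1492 genes the median gap was 0.47, with quartiles at 0.44 and 0.50, so that hypomorphic values were typically multiplied by 1.38 relative to control values. The gap of Hoxd3 was 1.61, a factor of 3.06 and the largest of the 1492. With fewer raw reads in hypomorphic hearts, Hoxd3 could be listed as higher only with a factor of at least 2.40. A high rank of its gap thus follows in part from the fold limit for listing, and nothing is read from that rank. Hoxc4 and Hoxa4 were also in the upper tail, with gaps of 0.83 (18th largest) and 0.82 (22nd), and Hoxa5 had a gap of 0.66 (54th). Beyond the median factor, the normalized scale thus raised the hypomorphic-to-control ratio by a further 2.21 times for Hoxd3, 1.29 for Hoxc4, 1.28 for Hoxa4 and 1.14 for Hoxa5.

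Raw values below 1000 reads came out whole after multiplying by 300 (within 0.06) for 82.7% of genes in control and 83.3% in hypomorphic hearts, the step of an arithmetic mean over 3 hearts of values with 2 decimals. Normalized values on a log scale weigh the hearts of a group differently from an arithmetic mean wherever the hearts are unequal. Whether unequal control hearts account for the gap of Hoxd3 was not tested, as the single values are not at hand. To make the raw means of Hoxd3 equal, hypomorphic values would have to be multiplied by 1.60, and to reach 1.5-fold by 2.40. A factor of at least 1.60 was seen for 42 of the 1492 genes.

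**Figure D2:**
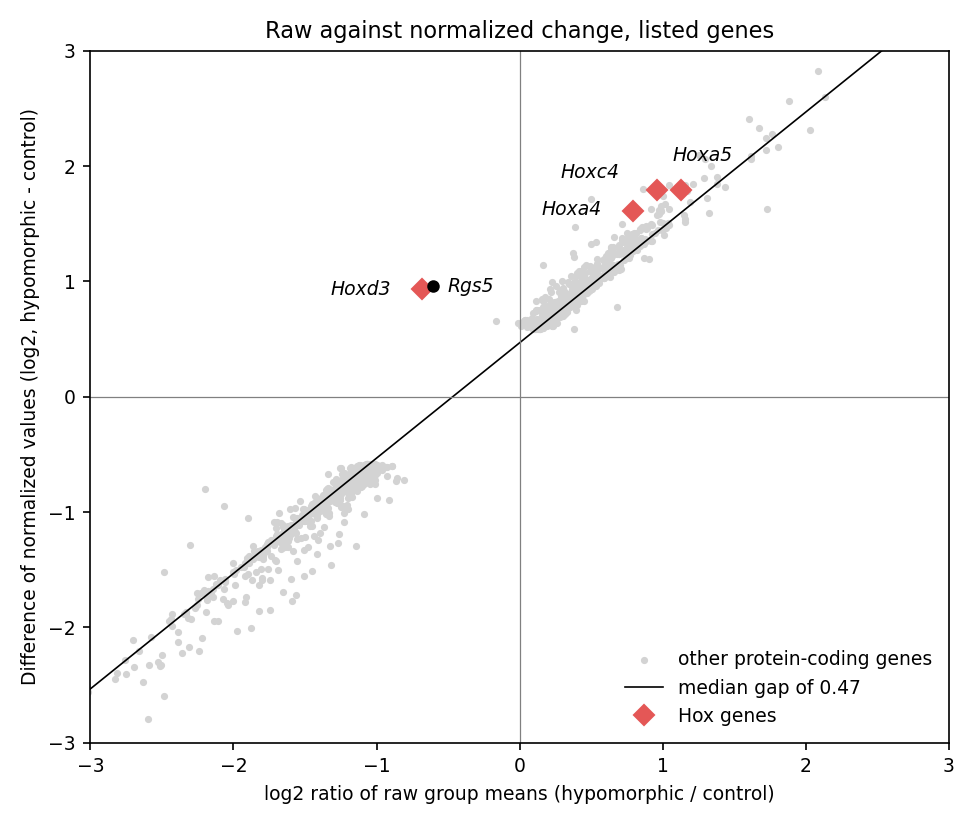
Difference of the normalized group values (y axis, log2) against the log2 ratio of the raw group means (x axis) for listed protein-coding genes, 1 point per gene, 20 of which lie outside the axes. Grey points follow the line at the median gap of 0.47, whereas Hoxd3 and Rgs5 sit well to the upper left, with normalized values higher and raw means lower in hypomorphic hearts, and Hoxa4, Hoxa5 and Hoxc4 lie above the line.

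Among the 1492 listed genes, 4 (0.268%) were higher on the normalized scale with fewer raw reads in hypomorphic hearts, and 0 the other way round. Genes are listed only past 1.5-fold on the normalized scale, so opposite directions need a gap that exceeds this limit in size. Genes with smaller normalized differences are not listed, so how rare opposite directions are among all genes is not known here. Hoxd3 had the lowest raw ratio of the 4 genes with opposite directions. Rgs5, a regulator of G-protein signalling found in pericytes, came next with raw means of 5862 reads in control and 3853 reads in hypomorphic hearts and a gap of 1.57. The others, Hsd3b2 and Nhlrc4, had raw ratios of 0.891 and 0.994 and so lay close to equality. By a raw ratio of at least 1.5, 3 of the 4 Hox genes (all but Hoxd3) and 11.1% of listed genes were higher.

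By likeness of pattern, measured as the distance between genes over the 2 normalized group values, Hoxa4, Hoxa5 and Hoxc4 lay within 0.097 to 0.17 of each other on the log2 scale and Hoxd3 lay 1.32 to 1.403 away from them. The gene nearest to Hoxc4 was Myh11, smooth muscle myosin heavy chain, at a distance of 0.0070, followed by Hoxa5. Among the nearest to Hoxa5 were Uts2d (0.053) and Myh11 (0.093), and nearest to Hoxa4 were Dthd1, Dnahc5 and Casr (0.057 to 0.13). Nearest to Hoxd3 were Rgs5 (0.52), Tbx1 (0.68) and Adcy8 (0.80), so that no listed gene was as close to Hoxd3 as each of the other Hox genes was to its neighbours. These distances rest on 2 group values and carry no test.

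Within the Hox family, 4 of 39 genes are listed, all 4 from paralog groups 3 to 5, which hold 10 genes, and 0 of the 29 genes of the other groups. By paralog group these are 1 of 3 in group 3, 2 of 4 in group 4 and 1 of 3 in group 5. By cluster they are 2 of 11 genes in A, 0 of 10 in B, 1 of 9 in C and 1 of 9 in D. The share of all measured genes that are listed is not known here. The 4 genes and their paralog groups were picked because they are listed, so nothing is read from these counts. The immediate neighbours Hoxa3, Hoxa6, Hoxc5 and Hoxd4 are not listed, and the levels of the 35 other Hox genes were not analysed here, so a smaller change or too few reads in them would not be seen. All 4 carry the gene ontology terms for sequence-specific DNA binding (49 of the 1464 listed genes with any term, 3.35%) and anterior/posterior pattern specification (17 genes, 1.16%), and 3 of the 4 (all but Hoxc4) carry that for embryonic skeletal system morphogenesis (7 genes, 0.478%).

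None of the 9 TALE cofactors looked for, the Meis, Pbx and Pknox genes, is listed. Of 24 regulators of Hox chromatin and Cdx factors, 3 are listed, all higher on the normalized scale and each close to the 1.5-fold limit. Mll1, a methyltransferase that maintains Hox expression, differed by 0.65, Cbx7, a Polycomb chromobox protein, by 0.61 and Kdm6a, a demethylase of the Polycomb mark, by 0.59. Their raw ratios, 1.09 to 1.17, stayed under 1.5, unlike those of Hoxa4, Hoxa5 and Hoxc4.

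Of 21 genes of retinoic acid synthesis, transport, degradation and reception, 3 are listed. Stra6, the cell-surface receptor that takes up retinol, had raw means of 74.7 reads (control) and 142 reads (hypomorphic) and normalized values of -1.02 and 0.48. Aldh1a1, which makes retinoic acid from retinaldehyde, had raw means of 635 and 838 reads and a normalized difference of 0.86, and its raw ratio of 1.32 stayed under 1.5. Cyp26a1, which degrades retinoic acid and is itself induced by it, was lower in hypomorphic hearts. Its raw mean was 33.1 reads in control hearts against 10.3, and its normalized difference was -1.01. The receptor genes of the Rar and Rxr families, Aldh1a2 and Rdh10 are not listed.

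Of 17 genes of the posterior second heart field and venous pole, 4 were higher and 1 lower on the normalized scale, with a median difference of 1.14 beside 1.70 for the 4 Hox genes and -0.63 over all 1492. Foxf2 (1.30), the pacemaker channel gene Hcn4 (1.27), the progenitor factor Isl1 (1.14) and Wnt2 (0.90) were higher and Foxf1a (-0.67) was lower. Of 15 anterior second heart field genes, 5 were higher, from Six2 at 0.60 to Fgf8 at 3.23, and Sema3c was lower at -0.68. Isl1 belongs to both lists and is counted in each. The Hox genes were thus not set apart by direction from either list, and on the normalized scale Hoxa4, Hoxa5 and Hoxc4 each differed by more than every listed gene of both lists other than Fgf8. By raw means this did not hold for Hoxa4, whose ratio of 1.73 lay beside 1.77 for Hcn4 and 1.73 for Fgf10. In each of the lists, 2 genes were higher and 1 was lower by at least 1.5-fold in raw means.

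**Figure D3:**
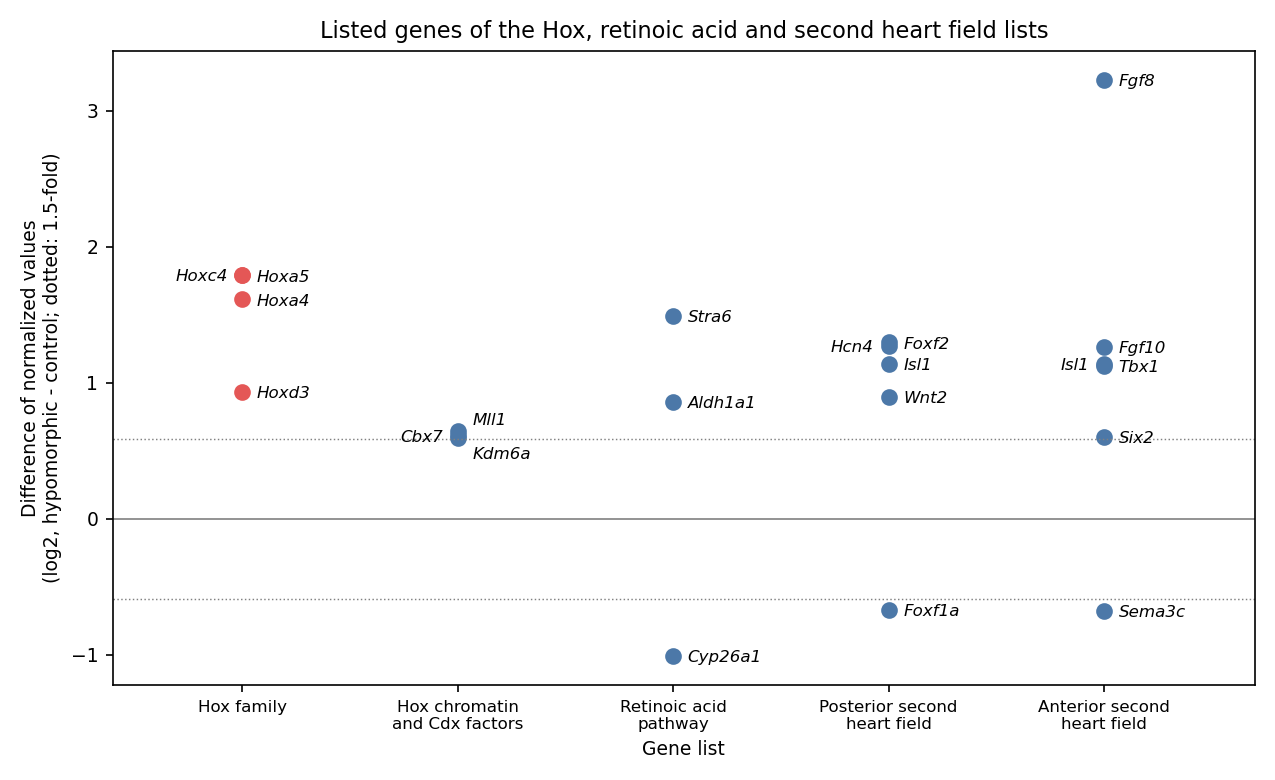
Differences of the normalized group values (log2, hypomorphic minus control) for the listed genes of 5 gene lists, 1 point per gene, with dotted lines at 1.5-fold, the limit for listing. Hoxa4, Hoxa5 and Hoxc4 lie between 1.61 and 1.79, Stra6 at 1.49 and Cyp26a1 at -1.01.

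The other 13 listed genes with the anterior/posterior pattern term, looked at after their values were known, went both ways, with 8 higher and 5 lower. Among them Pax6 (3.87), Cfc1 (2.25), Foxh1 (2.16) and Otx2 (1.35) were higher on the normalized scale and Otx1 (-2.33) and Sfrp2 (-1.14) lower. The 4 Hox genes were all higher on this scale, with Hoxd3 lower by raw means.

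Markers of other cells that a dissected heart can carry were counted beside these values. Of 15 erythroid genes, 13 are listed, all 13 higher on the normalized scale, beside 42% of all listed protein-coding genes. By a raw ratio of at least 1.5, 6 of the 13 were higher, beside 11.1% of listed genes. Their summed raw means were 5713750 reads in control and 8442609 reads in hypomorphic hearts. Of 14 foregut, lung and pharyngeal genes, where anterior Hox genes are also expressed, 0 are listed. Of 19 neural genes 2 were higher and 2 lower (summed raw means 1227 and 496 reads), and most of this sum was Sox3, with 937 reads in control and 99.3 in hypomorphic hearts, whereas Pax6 had 16.0 and 123. Of 12 neural crest genes 2 were higher and 1 lower (17484 and 6413 reads), and nearly all of this sum was Ednrb (17336 and 6243 reads), whereas Sox10 had 108 and 123 reads and Tcfap2a 39.9 and 46.8. Of 14 somite, limb and skeletal muscle genes 1 was higher and 2 lower (86.7 and 97.1 reads). Of the labelled tissue, 2 of 17 cardiomyocyte markers are listed, Nppa with 178388 and 80838 raw reads and Myl7 with 176094 and 199161. Of 9 epicardial markers 1 is listed, Msln, which was lower at -1.87, and of 10 endocardial and endothelial markers 0 are listed. No listed gene has a group value of 0, so markers without reads could not be seen, and the part of other cells in the Hox values was not tested.

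Between 0.77 and 2.13, the factor between the groups set the size of the Hox differences, but not the direction for Hoxa4, Hoxa5 and Hoxc4. From raw means with no scaling their log2 differences were 0.79, 1.13 and 0.96. With raw means multiplied by the median factor of the table they were 1.26, 1.60 and 1.43, and with raw means scaled to the total of the table they were 0.43, 0.76 and 0.59, the first of these under 1.5-fold. Hoxd3 was lower in hypomorphic hearts under 4 of the 5 scalings of raw means, from -0.21 to -1.05, and higher only with the median ratio over listed genes (0.41), under 1.5-fold. The scaling by that median ratio sets the median raw ratio of the listed genes to 1, although they are listed for a change and more were lower than higher. Every scaling multiplies the same raw means, and any factor below 1.60 leaves Hoxd3 lower, so the number of scalings adds no separate support.

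**Figure D4:**
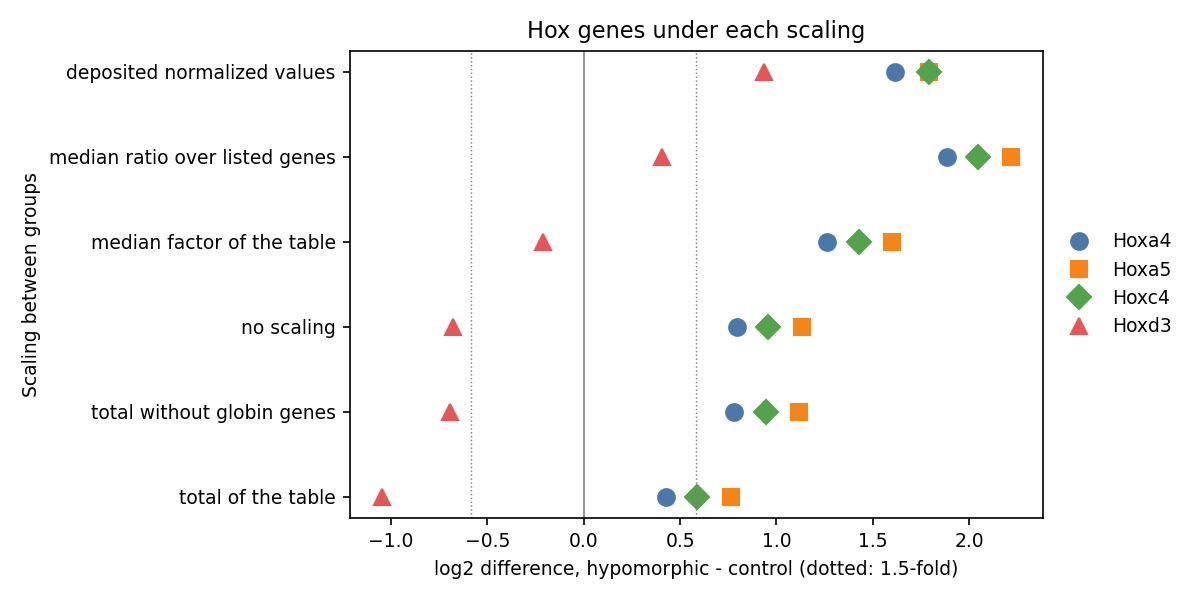
log2 differences (hypomorphic minus control) of the 4 Hox genes from the deposited normalized values (top) and from raw group means under 5 scalings between the groups, with dotted lines at 1.5-fold and no error available. Hoxa4, Hoxa5 and Hoxc4 stay to the right of 0 in every row, and Hoxd3 lies to the left of 0 in 4 of the 5 scalings of raw means.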

How the data were processed

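RNA from whole E11.5 hearts of 3 control and 3 hypomorphic embryos was made into TruSeq libraries, sequenced on an Illumina Genome Analyzer IIx and aligned to mm9 with TopHat. CASAVA 1.4 is also named in the submitters' processing notes. The authors analysed RefSeq genes in Avadis NGS and deposited only genes past the AC test with a fold change of at least 1.5. Raw values, as deposited, are the authors' means over 3 hearts of estimated counts without normalization. Normalized values were deposited on a log2 scale, 1 per group, by a method not given in the sources used here. Columns with the authors' own fold changes and direction were not used. A sum over selected genes is not a depth, so the depth per heart is unknown.

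With group values only, the planned edgeR and limma fits did not apply and no test was run. Differences are hypomorphic minus control. Intervals of raw ratios are exact binomial, from raw means times 3, rounded. Genes were named as the 4 Hox genes, listed members of the gene lists and the 3 protein-coding genes nearest to each Hox gene. Positions, exons and homeoboxes came from GENCODE M1 (mm9), and promoters from RefSeq. A sequence and a gene of similar pattern are not reported here. List symbols Kmt2a, Foxf1 and Tfap2a were matched under the table's older names Mll1, Foxf1a and Tcfap2a. The computation of the gap and factor was run on simulated hearts with a known factor and 1 gene carried by 1 control heart. The normalization there was assumed, so this checks the arithmetic only. The Hox genes and all lists were chosen with earlier results of these data known. Values were computed in Python 3.11.15 with pandas 2.3.3 and numpy 2.4.6, intervals with scipy 1.17.1, and plots with matplotlib 3.10.9.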

Additional observations from a re-analysis of the deposited data

How the results depend on the processing

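The normalized log2 differences of Hoxa4, Hoxa5, Hoxc4 and Hoxd3 were 1.61, 1.79, 1.79 and 0.93. In the same order of genes they were 0.79, 1.13, 0.96 and -0.68 with no scaling, 0.79, 1.12, 0.94 and -0.67 with a pseudocount of 1, 0.43, 0.76, 0.59 and -1.05 with the total of the table, and 0.78, 1.12, 0.94 and -0.69 with that total without globin genes. They were 1.88, 2.22, 2.05 and 0.41 with the median ratio over listed genes. Under the median factor they were 1.26, 1.60, 1.43 and -0.21. Hoxd3 thus reversed under 5 of these 6 settings and the other genes under none. All 6 reuse the same raw means, so these counts are not separate lines of support. A factor below 1.60 leaves Hoxd3 lower. The others would be lower only with a factor below 0.58 (Hoxa4), 0.51 (Hoxc4) or 0.46 (Hoxa5), and the factors used ran from 0.77 to 2.13. The number of the 4 genes higher by at least 1.5-fold, 4 as deposited, was 2 with the total of the table and 3 under every other scaling and at a fold of at least 2. The factor from the total of the table was 0.77, and it was 0.99 without globin genes, so globin reads set most of that scaling. Among genes past the fold limit under each setting, the share that were higher was 42.0% as deposited (627 higher, 865 lower). It was 42.2% with the median factor (593 and 811) and 41.9% over all gene types (660 and 917). The share was 16.1% with no scaling (166 and 867), 6.17% with the total of the table (57 and 867) and 15.3% without globin genes (157 and 867). At a fold of at least 2 it was 44.9% (218 and 267), and with at least 100 raw reads 46.5% (433 and 499). Only genes already in the deposited list could be counted under any setting. With the median ratio it was 80.6% (625 and 150), with nearly as many genes higher as deposited and fewer lower genes past the limit. Beyond the change of factor and the set of genes kept, the cause was not tested. No paired analysis was possible because only group values are listed. Leaving out a replicate, DESeq2 and no filter on low counts also need values per heart and were not run.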
